A study of Mus musculus with 6 samples.

Results

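RNA-seq was used to follow receptor tyrosine kinase signaling genes in pluripotent ESCs and in NCs made from them with RA. The genes described here are 10 of the 23235 rows of the gene table, taken by name: the receptors Pdgfra, Pdgfrb, Kit, Kdr, Flt1 and Ret, and the ligands Pdgfa, Pdgfc, Kitl and Vegfa. ESCs of the mouse line E14Tg2a, at passages 37 to 40, were kept in serum medium with LIF and gave 3 samples. NCs came from the same line and passages, were deprived of LIF and received 1 μM RA for 48 h, and gave the other 3 samples, so that withdrawal of LIF and addition of RA cannot be told apart. All samples therefore share 1 cell line, and each came from 2 plates of a monolayer culture.

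Receptor tyrosine kinases are cell surface proteins that are brought together in pairs by a ligand and then phosphorylate each other, which recruits adaptors and starts the RAS-ERK, PI3K and phospholipase C pathways. PDGFRα and PDGFRβ bind the PDGF dimers and mark mesenchyme, primitive endoderm and glial progenitors. KIT binds stem cell factor, the product of Kitl, and is needed by germ cells, melanoblasts and blood progenitors. KDR (VEGFR2) and FLT1 (VEGFR1) bind VEGF-A in the endothelium. RET binds GDNF family ligands only together with a GFRα coreceptor and acts in enteric neurons, motor neurons and the kidney.

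The authors deposited 1 FPKM value (fragments per kilobase of transcript, corrected for library size) per gene and condition, estimated by Cuffdiff over the 3 samples. These values give no level of a single sample and no SD, and the authors' own test columns in the same table were not used. The differences below were therefore not tested and are not set against the spread between replicates. A gene is called higher or lower in NCs when its FPKM differed at least 2-fold and reached 1 FPKM in the higher condition. By this rule 12.5% of the 13293 genes at 1 FPKM or more were higher and 10.6% were lower in NCs, 23.1% in all. The FPKM columns differ in their totals, and with equal totals all log2 ratios shift upwards by 0.29 and 70.6% rather than 54.0% of the called genes are higher. In bulk RNA, fewer cells of a type and less RNA per cell cannot be told apart.

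Kit was the leading receptor of the group in both conditions, and the other 5 receptors were low in ESCs and nearer to it in NCs. All 10 genes were detected in both conditions. With no minimum on the FPKM, Ret, Kitl, Pdgfra and Kdr were at least 2-fold higher in NCs, which is 4 of 10 genes, whereas 19.7% of all 19582 detected genes were. None of the 10 was 2-fold lower, against 14.7% of all detected genes. With the minimum, 8 of the 10 could be called, and Ret, Kitl and Pdgfra were called higher. Each of these 3 was under 1 FPKM in ESCs and passed the minimum through its NC value alone. It could therefore not have been called lower, and no weight is put on 3 of 8.

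**Figure D1:**
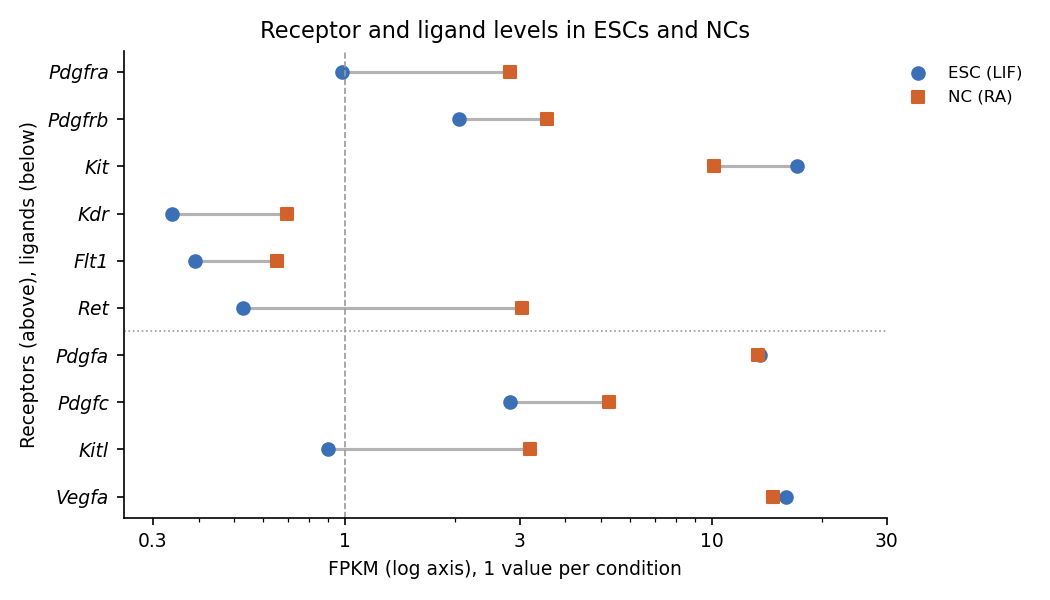
FPKM (log axis) of the 6 receptors and 4 ligands in ESCs (circles) and NCs (squares), 1 value per condition with no error bar, with a dashed line at 1 FPKM. Kit, Pdgfa and Vegfa lie above 10 FPKM in both conditions, and Ret shows the widest gap, from 0.528 to 3.05 FPKM.

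Ret showed the largest difference. Ret (ENSMUSG00000030110.13; chromosome 6, 118151745 to 118197718 on GRCm38) had 0.528 FPKM in ESCs against 3.05 in NCs, a 5.78-fold higher value and a log2 ratio of 2.53. The difference stayed past 2-fold with a pseudocount of 1, where its log2 ratio was 1.41. Among all genes that could be called, 96.4% had a lower log2 ratio than Ret. Ret itself could be called only through its NC value, so no weight is put on that place. It was the one gene of the 10 that was also past a 4-fold limit.

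Most of the coreceptors that RET needs were higher as well, while none of its ligands was called higher. Gfra1, which pairs with GDNF, had 1.89 FPKM in ESCs against 7.80 in NCs (4.12-fold higher). Gfra3, the coreceptor for artemin, was 9.95-fold higher, at 0.180 and 1.79 FPKM. Gfra4, the coreceptor for persephin, also passed the limit, with 1.28 FPKM in ESCs against 2.68 in NCs. Gfra2, which pairs with neurturin, stayed under 1 FPKM in both conditions (0.252 and 0.151). Thus 3 of the 4 coreceptor genes passed the limit, all upwards, whereas 12.5% of all genes were higher. Gfra3, like Ret, was under 1 FPKM in ESCs and could not have been called lower, so no weight is put on this count. Gfra1 exceeded Ret 3.58-fold in ESCs and 2.55-fold in NCs on the FPKM scale.

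Of the ligands, Nrtn (neurturin) was the most abundant, at 15.9 FPKM in ESCs against 10.6 in NCs, within the limit. Gdnf was 8.23-fold higher in NCs but far under the minimum in both conditions, at 0.0216 and 0.177 FPKM. Artn had 1.84 FPKM in ESCs against 1.40 in NCs. Gdf15, a stress-induced ligand that reaches RET through another coreceptor, GFRAL, was 13.5-fold lower in NCs (4.91 against 0.363 FPKM), and Gfral was listed at 0 in both. Over the Ret list as a whole, which holds Ret itself, 7 of 11 genes reached 1 FPKM. Of these 4 were higher and 1 was lower in NCs, against 12.5% and 10.6% of all genes. The median log2 ratio was 1.07 against -0.03 over all 13293 genes. Ret and Gfra3 reached 1 FPKM only in NCs, so no weight is put on the count or the median.

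The ligand of KIT was called higher in NCs, while Kit itself had a lower value within the limit. Kit (ENSMUSG00000005672.12; chromosome 5, 75574916 to 75656722) had 17.1 FPKM in ESCs against 10.1 in NCs, a 1.69-fold lower value that did not reach the 2-fold limit. Kitl (ENSMUSG00000019966.18; chromosome 10, 100015630 to 100100416) had 0.904 FPKM in ESCs against 3.20 in NCs, 3.54-fold higher. In ESCs the FPKM of Kit was 18.9 times that of Kitl, and in NCs it was 3.17 times as high. Kit held place 8 among 58 receptor tyrosine kinases in ESCs and place 12 in NCs.

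The germ cell markers, which belong to a cell type that uses KIT, are given here beside it. Of the 7 markers at 1 FPKM or more, 2 were higher in NCs, namely Stra8 (5.15 and 340.2 FPKM), a meiotic gene induced by RA, and Dazl (4.35 and 9.46 FPKM), and 4 were lower, namely Prdm14, Tfap2c, Dppa3 and Prdm1. The shares over all genes were 12.5% higher and 10.6% lower. Prdm14 was under 1 FPKM in NCs and could not have been called higher. The summed FPKM of the germ cell markers was 119 in ESCs and 376 in NCs, nearly all of the second value from Stra8. The part of these cells in the Kit and Kitl values was not tested.

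Both PDGF receptors had higher values in NCs, and Pdgfra passed the limit. Pdgfra (ENSMUSG00000029231.15; chromosome 5, 75152292 to 75198215) had 0.983 FPKM in ESCs against 2.82 in NCs, 2.87-fold higher. With a pseudocount of 1 its log2 ratio was 0.95, no longer past the limit. Pdgfrb (ENSMUSG00000024620.11; chromosome 18, 61045150 to 61085061) had 2.05 FPKM in ESCs against 3.57 in NCs, 1.74-fold higher and within the limit. Pdgfrb was 2.08 times as abundant as Pdgfra in ESCs and 1.26 times in NCs.

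The PDGF ligands differed among themselves. Pdgfa (ENSMUSG00000025856.15; chromosome 5, 138976014 to 138997370), whose product binds PDGFRα, had 13.6 FPKM in ESCs against 13.4 in NCs, a log2 ratio of -0.02 that turned positive under other scalings. Pdgfc (ENSMUSG00000028019.9; chromosome 3, 81036416 to 81214040), which encodes a latent ligand of PDGFRα activated by proteolysis, was 1.86-fold higher in NCs (2.83 and 5.25 FPKM). The level of Pdgfa was 13.8 times that of Pdgfra in ESCs and 4.74 times in NCs. Among the ligands outside the group, Pdgfb was 4.49-fold lower in NCs, at 5.21 and 1.16 FPKM, and Pdgfd was 6.57-fold higher, at 0.156 and 1.02 FPKM. Pdgfb, a ligand of both receptors, thus stood at 2.55 times the level of Pdgfrb in ESCs, whereas in NCs Pdgfrb stood at 3.07 times the level of Pdgfb.

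Cells known to carry PDGF receptors were looked for with marker lists. Of the 8 fibroblast and mesenchyme markers at 1 FPKM or more, 7 were higher in NCs and 1, Thy1, was lower. Over all genes, 12.5% were higher and 10.6% lower. Col3a1, Dcn, Twist2 and Fbn1 were under 1 FPKM in ESCs and could not have been called lower, so no weight is put on the count. The summed FPKM of the list was 22.7 in ESCs and 64.3 in NCs. Of the markers above 1 FPKM in both conditions, Twist1, a mesenchymal transcription factor, had 1.76 and 14.4 FPKM. Col1a2, a collagen chain, had 3.47 and 23.3 FPKM. Of the 10 extraembryonic endoderm markers that reached 1 FPKM, 6 were higher and 0 lower, with sums of 239.9 FPKM in ESCs against 340.5 in NCs. Foxa2, an endoderm transcription factor, had 0.617 and 5.24 FPKM. Foxa2, Sox17 and Sox7 likewise reached 1 FPKM only in NCs. Lum was listed at 0 in ESCs, and Afp and Ttr stayed under 1 FPKM in both conditions.

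The neural crest list had 5 of 8 genes higher and 2 lower (sums of 15.2 and 19.0 FPKM), the first among them Sox9, at 0.239 and 3.12 FPKM, and the second Foxd3, at 4.70 and 0.334 FPKM, and Erbb3, at 8.29 and 2.89 FPKM. None of the 3 oligodendrocyte progenitor markers that could be called passed the limit (sums of 7.07 and 9.78 FPKM), and Olig2 was at 0.0403 and 0.0350 FPKM. In the primitive streak and early mesoderm list 1 of 3 genes, Foxf1, was higher and 0 were lower (sums of 5.39 and 5.95 FPKM). Foxf1 and the 5 higher neural crest genes were under 1 FPKM in ESCs and could not have been called lower. Foxd3 was under 1 FPKM in NCs and could not have been called higher. The shares over all genes were 12.5% higher and 10.6% lower, and no weight is put on these counts. What part such cells have in the Pdgfra and Pdgfrb values was not tested.

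The VEGF receptors were the lowest genes of the group. Kdr (ENSMUSG00000062960.10; chromosome 5, 75932827 to 75978458) had 0.339 FPKM in ESCs against 0.697 in NCs, a 2.06-fold higher value under the minimum of 1 FPKM. Flt1 (ENSMUSG00000029648.13; chromosome 5, 147561604 to 147726011), whose transcripts encode a membrane and a soluble form that 1 gene value does not separate, had 0.390 and 0.655 FPKM (1.68-fold higher). Their order was Flt1 over Kdr in ESCs and Kdr over Flt1 in NCs, with ratios of 1.15 and 1.06, which without replicates cannot be told from equal levels. Flt4, the receptor for VEGF-C, was the most abundant of the VEGF receptors and was 2.57-fold higher in NCs, with 2.65 and 6.80 FPKM.

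Vegfa (ENSMUSG00000023951.17; chromosome 17, 46016993 to 46032369) was high and nearly level between the conditions, at 16.0 FPKM in ESCs against 14.7 in NCs (1.09-fold lower). It stood 47.3-fold over Kdr in ESCs and 21.2-fold over it in NCs. Vegfa is a classical target of hypoxia-inducible factors. Of 17 other genes listed as hypoxia-responsive, 9 were lower in NCs and 0 higher, against 10.6% and 12.5% of all genes. Adm, among the lower ones, was under 1 FPKM in NCs and could not have been called higher. The list also holds genes of the factor pathway itself, namely Epas1, which was lower, and Hif1a, Arnt and Vhl, which were within the limit. Ndrg1 was 5.62-fold lower (12.5 and 2.22 FPKM), Hk2, which encodes hexokinase 2, 4.12-fold lower (59.5 and 14.5 FPKM), and Egln3, which encodes an oxygen-sensing prolyl hydroxylase, 4.10-fold lower (22.2 and 5.42 FPKM). The median log2 ratio of that list was -1.16, whereas that of Vegfa was -0.12, and with equal column totals the ratio of Vegfa turned to 0.18.

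The coreceptor Nrp1 differed more than any of the receptors. Nrp1 encodes neuropilin-1, which binds VEGF-A together with KDR and binds class 3 semaphorins together with plexins. It had 0.147 FPKM in ESCs against 40.6 in NCs, a 275-fold higher value and a log2 ratio of 8.11. Relative to Kdr it stood at 0.436 times the level in ESCs and at 58.3 times in NCs. Nrp2 had 4.28 and 3.48 FPKM, within the limit. Among the semaphorins that bind neuropilins, Sema3a was 37.6-fold higher in NCs (0.0422 and 1.59 FPKM) and Sema3f also passed the limit (2.11 and 4.42 FPKM). In all, 3 of the 6 genes of this list were higher in NCs and 0 lower, against 12.5% and 10.6% of all genes. Nrp1 and Sema3a were under 1 FPKM in ESCs and could not have been called lower.

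Endothelial markers are given beside the VEGF receptors. Of 12 markers, 7 reached 1 FPKM, of which Sox18 was higher in NCs and Pecam1, Cldn5 and Tek were lower. The shares over all genes were 12.5% higher and 10.6% lower. Cldn5 was under 1 FPKM in NCs and could not have been called higher. Pecam1, which ESCs also express, had 24.7 FPKM in ESCs against 2.79 in NCs. Cdh5, the defining cadherin of endothelium, was at 0.291 and 0.297 FPKM, and the summed level of the list was 70.0 FPKM in ESCs against 45.7 in NCs. Of the 8 blood genes in the table, 2 reached 1 FPKM, of which Lmo2 was higher and 0 were lower (sums of 3.95 and 4.35 FPKM), and Ptprc, the pan-leukocyte marker, was listed at 0 in both conditions. The part of such cells in the VEGF receptor values was not tested.

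**Figure D2:**
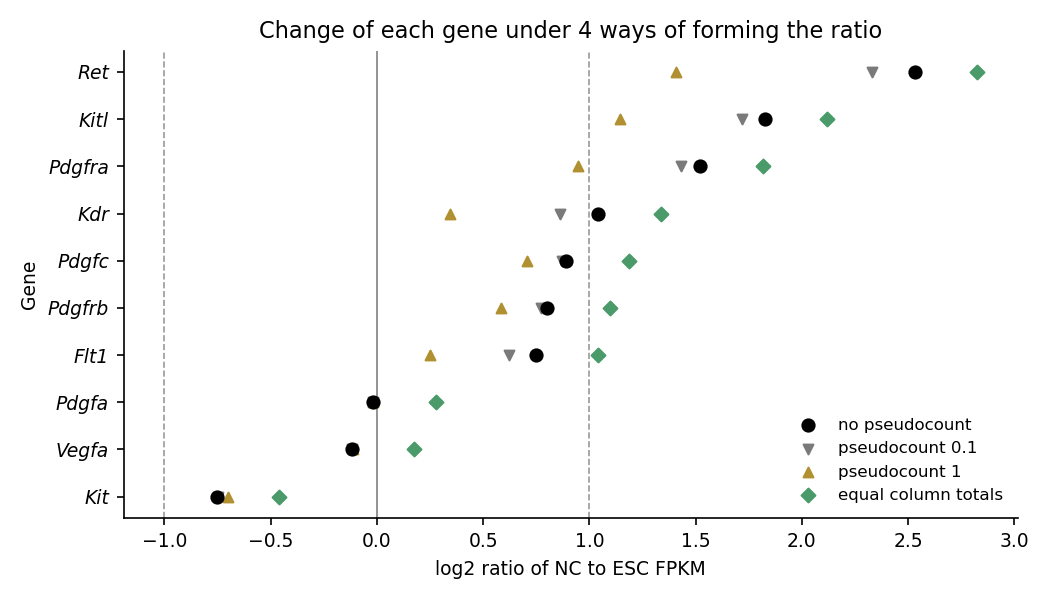
log2 ratio of NC to ESC FPKM for the 10 genes with no pseudocount (black circles), with a pseudocount of 0.1 or 1, and with both columns scaled to the same total, with dashed lines at a 2-fold difference. Ret and Kitl stay past the line under all 4 settings, Pdgfra falls short of it with a pseudocount of 1, and Pdgfa and Vegfa change sign with equal totals.

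The order of the genes within a condition also changed. In ESCs it ran from Kit (17.1 FPKM) over Vegfa, Pdgfa, Pdgfc, Pdgfrb, Pdgfra, Kitl, Ret and Flt1 to Kdr (0.339 FPKM). In NCs it ran from Vegfa (14.7 FPKM) over Pdgfa, Kit, Pdgfc, Pdgfrb, Kitl, Ret, Pdgfra and Kdr to Flt1 (0.655 FPKM). The widest step in ESCs lay between Pdgfa and Pdgfc, a ratio of 4.79, and in NCs between Pdgfra and Kdr, a ratio of 4.05. Pdgfrb, Kitl, Ret and Pdgfra lay between 3.57 and 2.82 FPKM in NCs, and with no spread given their order there is not resolved.

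Depth could be read only from the lowest FPKM values. In genes with a single annotated transcript these gathered at steps, the larger of which was 0.0138 FPKM in ESCs against 0.0135 in NCs. It was taken to stand for 1 fragment in 1 kb of transcript. Smaller steps lay at 0.0120 and 0.00715 FPKM, and in NCs the smaller step held more values, 139 against 63. The larger step was used since it gives the lower number of fragments. The smaller NC step would give larger NC numbers, so the numbers of ESCs and NCs may not be on the same basis. By that step, and over the longest coding transcript, the value of Kdr rested on about 140.5 fragments in ESCs and 295 in NCs, and that of Flt1 on about 189 and 324. The called genes rested on more, about 473 and 1385 fragments for Pdgfra, 357 and 1289.8 for Kitl and 201 and 1186 for Ret. These numbers concern counting only and say nothing of the spread between cultures.

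Pdgfra, Kit and Kdr stand side by side on chromosome 5, an arrangement shared by vertebrates, yet their values differed in direction. By their RefSeq positions, Kit begins 377 kb beyond the end of Pdgfra, and Kdr lies 276 kb beyond Kit on the opposite strand. Of the 3 genes, Pdgfra and Kdr had higher and Kit lower values in NCs. Of the 10 protein-coding neighbours, 5 on each side, none was past the 2-fold limit at 1 FPKM or more. Gsx2 and Nmu were under that minimum and could not be called. In the gene list for this stretch, where 11 of 14 genes could be called, Pdgfra was the 1 called gene. Over all genes 23.1% were called, and so few genes cannot show whether this stretch differs from that share. With equal column totals this list had 2 called genes, as Srd5a3 then passed the limit. Those nearest to the group were within the limit or low. Chic2 had 17.6 and 23.9 FPKM, Srd5a3 had 6.53 and 11.7 FPKM, and the homeobox gene Gsx2, next to Pdgfra, had 0.238 and 0.0560 FPKM.

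**Figure D3:**
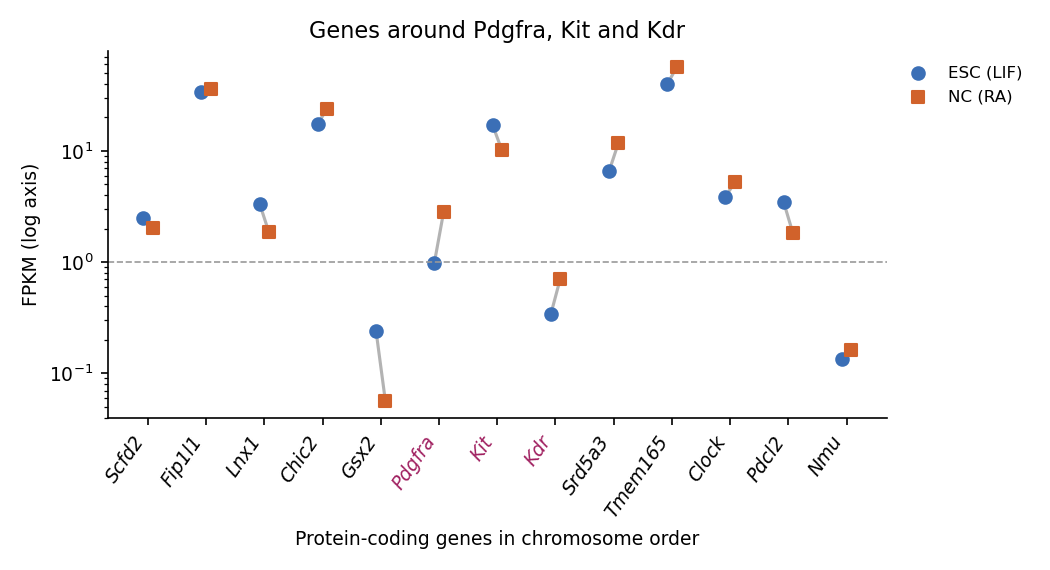
FPKM (log axis) in ESCs (circles) and NCs (squares) of Pdgfra, Kit and Kdr and of 5 protein-coding genes on each side, in chromosome order, with a dashed line at 1 FPKM. Pdgfra lies above its ESC value in NCs and Kit below it, while Tmem165, further along, has the highest values (39.6 and 56.2 FPKM).

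The start regions of the 3 neighbours and of Kitl are shown because the values of these genes went in different directions. Each runs 5′ to 3′ from 250 bases before to 50 bases after a RefSeq start on GRCm38.p6. Capitals mark matches, on either strand, to the GC box GGGCGG, the TATA box TATAAA and the retinoid half-sites, which are spelled AGGTCA or else AGTTCA or else GGGTCA or else GGTTCA.
Pdgfra (chr5:75152001-75152300, plus strand): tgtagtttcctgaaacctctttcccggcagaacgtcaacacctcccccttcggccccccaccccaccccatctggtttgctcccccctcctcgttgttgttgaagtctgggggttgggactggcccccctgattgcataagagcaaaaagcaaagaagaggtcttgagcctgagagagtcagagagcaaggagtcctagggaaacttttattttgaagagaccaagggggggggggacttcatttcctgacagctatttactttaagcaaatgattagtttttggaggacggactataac
Kit (chr5:75574737-75575036, plus strand): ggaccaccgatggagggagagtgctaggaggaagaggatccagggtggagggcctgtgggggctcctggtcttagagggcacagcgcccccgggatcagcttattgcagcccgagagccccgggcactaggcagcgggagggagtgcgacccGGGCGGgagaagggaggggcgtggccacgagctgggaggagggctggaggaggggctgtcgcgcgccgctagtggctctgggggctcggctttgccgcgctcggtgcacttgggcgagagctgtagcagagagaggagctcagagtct
Kdr (chr5:75978406-75978705, minus strand): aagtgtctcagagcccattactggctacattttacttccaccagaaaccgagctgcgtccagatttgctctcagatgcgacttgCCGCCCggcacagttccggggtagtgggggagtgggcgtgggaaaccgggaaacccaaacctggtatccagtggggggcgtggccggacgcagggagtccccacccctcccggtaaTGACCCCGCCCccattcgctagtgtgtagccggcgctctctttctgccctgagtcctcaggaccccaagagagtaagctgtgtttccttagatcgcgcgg
Kitl (chr10:100015571-100015870, plus strand): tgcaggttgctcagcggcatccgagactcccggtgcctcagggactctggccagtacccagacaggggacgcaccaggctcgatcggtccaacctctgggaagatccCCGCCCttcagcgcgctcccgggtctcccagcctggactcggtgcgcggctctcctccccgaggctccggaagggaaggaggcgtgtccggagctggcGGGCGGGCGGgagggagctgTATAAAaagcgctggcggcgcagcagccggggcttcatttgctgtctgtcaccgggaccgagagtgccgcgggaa

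These regions differ in base composition. That of Pdgfra had 51.0% G and C and 5 CpG sites, near the median of 52.7% and 7 over 32851 RefSeq start regions, and held none of the motifs. That of Kit had 69.0% G and C, 20 CpG sites and 1 GC box. The Kdr region had 60.7% G and C and 19 CpG sites, with 2 GC boxes and 1 half-site, GGGTCA on the minus strand of the window, which shares a base with the second GC box. The Kitl region had 68.7% G and C, 28 CpG sites, 3 GC boxes, 2 of which overlap, and a TATA box 25 bases before the start.

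Over all start regions, 43.7% held a half-site, 35.7% a GC box and 13.6% a TATA box. Direct repeats of the half-sites with 1, 2 or 5 bases between them, the spacings that retinoid receptors bind, were in 0.222%, 0.268% and 0.0974% of all regions and in none of the 11 RefSeq start regions of the 8 genes examined, which were Pdgfc, Pdgfra, Kit, Kdr, Pdgfa, Flt1, Kitl and Vegfa. Windows of this length leave out more distant elements. The RefSeq genes of Pdgfra and Kdr also reach further upstream, to positions 75151322 and 75979072 on chromosome 5. Regions around those positions were not examined.

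Over the 8 receptors of the PDGF, Kit and VEGF families, 4 reached 1 FPKM, of which Pdgfra and Flt4 were higher in NCs and 0 lower. Of the 6 receptors described here, Ret and Pdgfra were called higher, Pdgfrb and Kit were within the limit, and Kdr and Flt1 were under the minimum. Of the other 52 of 58 receptor tyrosine kinases, 34 reached 1 FPKM. Among these 12 were higher in NCs (35.3%, against 12.5% of all genes), 4 were lower (11.8%, against 10.6%) and 18 were within the limit. Their median log2 ratio was 0.32. Ror1 (0.465 and 1.53 FPKM) and Aatk (0.760 and 1.93 FPKM), both called higher, reached 1 FPKM only in NCs. They could not have been called lower, so no weight is put on the count or the median. With equal column totals, 85.0% rather than 77.8% of all called receptor tyrosine kinases were higher. The largest differences upwards were those of Epha7 (1.09 and 5.99 FPKM), an ephrin receptor, of Fgfr3 (1.39 and 6.31 FPKM) and of Fgfr2 (7.40 and 26.6 FPKM). Downwards they were those of Epha2 (22.8 and 4.25 FPKM), Epha1 (9.95 and 2.77 FPKM) and Erbb3 (8.29 and 2.89 FPKM). Ret moved from place 38 to place 25 and Pdgfra from 34 to 28, while Ptk7 (53.3 and 48.3 FPKM) and Fgfr1 (31.0 and 44.1 FPKM) held the first 2 places in both conditions.

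**Figure D4:**
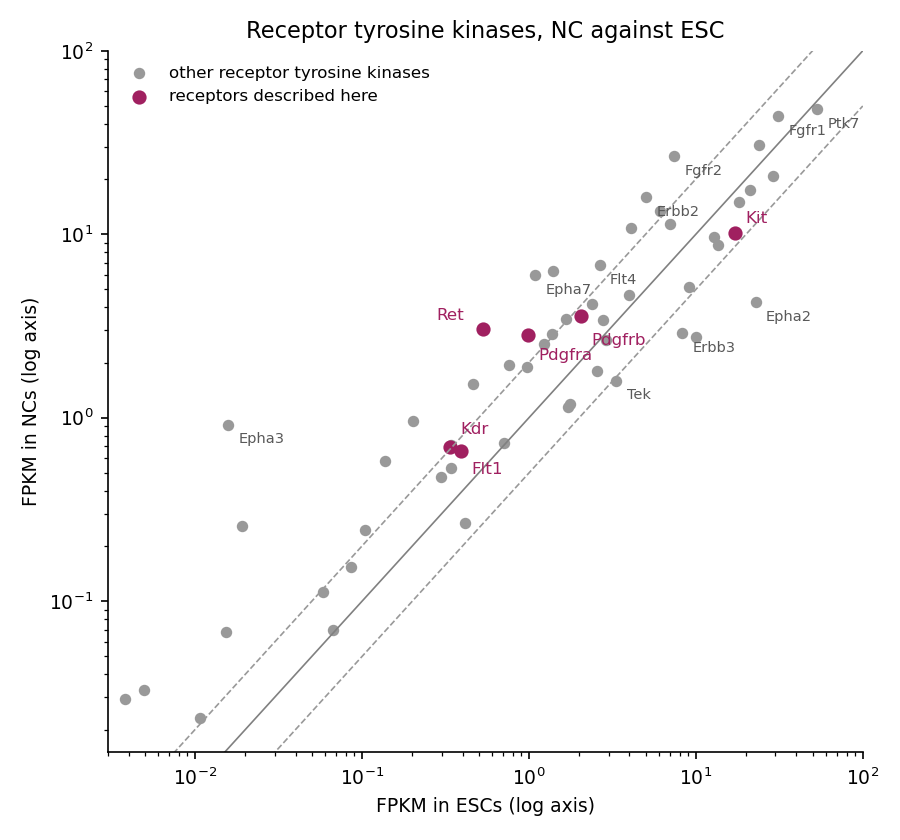
FPKM in NCs against FPKM in ESCs (log axes) for the receptor tyrosine kinases, with the 6 receptors described here in dark red, a solid line at equal values and dashed lines at a 2-fold difference. Ros1, listed at 0 in ESCs, is left out, and Ret, Pdgfra and, by a small margin, Kdr lie above the upper dashed line while Kit lies between the lines.

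The ligands of the PDGF, Kit and VEGF families, of which 4 belong to the group, split both ways. Of 13 in the table, 12 reached 1 FPKM, and the median log2 ratio was 0.42. Of these, 4 were higher and 2 lower in NCs, against 12.5% and 10.6% of all genes. Besides Kitl and Pdgfd, the higher ones were Csf1, the ligand of the macrophage receptor CSF1R (0.948 and 3.60 FPKM), and Vegfc, which binds FLT4 (1.87 and 4.03 FPKM). Besides Pdgfb, the lower one was Figf, which encodes VEGF-D (1.61 and 0.699 FPKM). Kitl, Pdgfd and Csf1 reached 1 FPKM only in NCs and could not have been called lower. Figf reached it only in ESCs and could not have been called higher, so no weight is put on these counts. Vegfb was the most abundant, with 44.8 and 53.2 FPKM. Csf1r and Flt3, the 2 related receptors of blood cells, were under 0.1 FPKM in both conditions.

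Of 31 adaptors and effectors that act next to activated receptors, 30 reached 1 FPKM. Among these 8 were higher in NCs (26.7%, against 12.5% of all genes), 1 was lower (3.33%, against 10.6%) and 21 were within the limit. The median log2 ratio was 0.33. Dok5 and Gab2, both called higher, were under 1 FPKM in ESCs and could not have been called lower. No weight is therefore put on the count or the median. Grb10, an adaptor that dampens receptor signals and is an imprinted gene, was 4.47-fold higher (8.84 and 39.5 FPKM). Dok5, a docking protein that works with RET, was 4.05-fold higher (0.884 and 3.58 FPKM). Plcg2, a phospholipase C isoform, was 2.49-fold lower (26.4 and 10.6 FPKM), while Plcg1 had 35.7 and 33.5 FPKM. Grb2 (55.2 and 70.0 FPKM), Ptpn11 (25.4 and 34.7 FPKM) and Sos1 (8.03 and 8.41 FPKM), which link receptors to RAS, were within the limit.

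**Figure D5:**
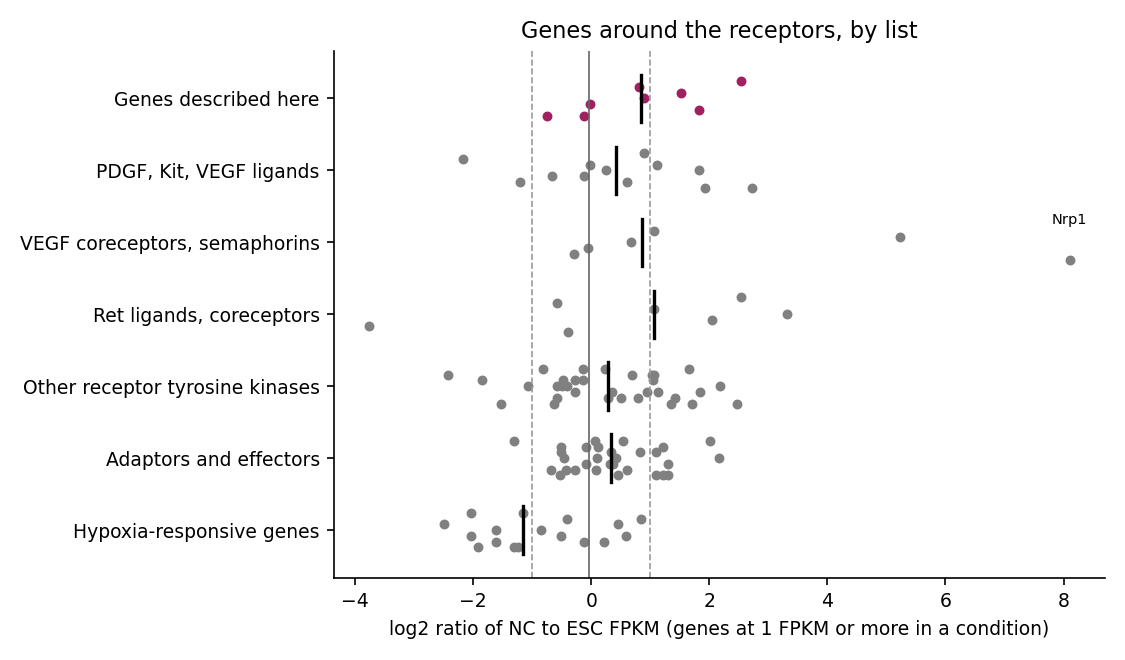
log2 ratio of NC to ESC FPKM of single genes at 1 FPKM or more in a condition, by list, with a black bar at each list's median, a solid line at the median of all genes (-0.03) and dashed lines at a 2-fold difference. The lists of ligands and of Ret genes include genes of the group; Nrp1 lies farthest to the right at 8.11, and the hypoxia-responsive genes have a median of -1.16.

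Genes whose 2 values were nearest to those of a called gene, by Euclidean distance of log2(FPKM + 1), were found over all gene names. They were Rbks, Crispld2 and Oaf for Pdgfra, 9530052E02Rik, 1700013H16Rik and Efna5 for Kitl, and Mgll, Snai2 and Slc4a4 for Ret, all at distances under 0.06. Each distance rests on 2 values, 1 per condition.

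The cell labels were checked with marker genes. All 8 ESC markers were at least 2-fold lower in NCs (summed FPKM of 2369 and 158). Of the 8 neural markers at 1 FPKM or more, Pax6 and Sox1 were higher, and Neurod1, Stmn2, Elavl3 and Tubb3, which mark neurons, were lower. The shares over all genes were 12.5% higher and 10.6% lower. Neurod1 and Elavl3 were under 1 FPKM in NCs and could not have been called higher. Nes and Map2 were within the limit, and the sums of the list were 212 and 129 FPKM. Neurog2 (0.0436 and 0.913 FPKM) and Dcx (0.0140 and 0.334 FPKM) had higher values in NCs but stayed under 1 FPKM. Thus the progenitor genes Pax6 and Sox1 were called higher and Nes was not, and no neuronal gene at 1 FPKM or more was called higher.

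Parts of 3 genes overlap transcripts from the other strand. Pdgfra is overlapped by Gm42802. The antisense gene 6330403L08Rik shares 21.3% of the 50-base words of Pdgfa, and Gm16000 shares 1.95% of those of Pdgfc. Words of Pdgfra were shared with other genes to 4.93%. With no strand setting given in the sources used here, reads from a gene and its antisense partner may not be separated. No words of Pdgfrb, Kit, Kitl, Kdr or Ret were found in another gene, and at most 0.182% of those of Flt1 and Vegfa were.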

How the data were processed

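RNA was sequenced from 3 ESC and 3 NC samples. Per the submitters' processing notes, alignment to mm10 used TopHat2 (2.0.8) together with Bowtie2 (version 2.1.0), followed by Cufflinks (2.0.2) and Cuffdiff. Each deposited FPKM value, 1 for a gene in a condition, was made by the authors from the replicates of that condition. The NC heading reads FPK and was taken as FPKM. The deposited table also holds the authors' own log2 fold changes, test statistics (a score), p-values and q-values, none of which was used. The release of the gene annotation and the normalization option are not given in the sources used here.

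Ratios were formed without a pseudocount. A gene was called at a 2-fold difference with at least 1 FPKM in the higher condition. The planned limma test needed 1 value per sample and could not be run. The design named the test for either form of the table. The rule was tested on simulated data, with counting noise only and no spread between cultures, for genes at 1 FPKM or more in ESCs. Ret, Kitl and Pdgfra were under 1 FPKM in ESCs, so the simulation does not bear on their calls. The members and gene lists were chosen with earlier results of these data known.

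Every one of the 10 genes is named; of each list, the called genes with the largest log2 ratios, at most 4 in each direction, and genes at 10 FPKM or more needed for the range. Other genes (among them Cdh5, Gdnf, Artn, Gfra2, Gfral, Nrp2, Olig2, Ptprc, Lum, Afp, Ttr, Sos1, Csf1r, Flt3, Flt4, Gsx2, Srd5a3, Twist2, Fbn1, Sox7, Nes, Map2, Neurog2 and Dcx) were chosen after their values were seen. The total FPKM was 770592 in ESCs and 628679 in NCs. The number of fragments was estimated from the lowest values with an assumed fragment length of 200 bases, a step added after the file was seen. Gene positions and transcripts are those of GENCODE M21 on GRCm38, the assembly mm10 denotes, and neighbour distances and start regions those of RefSeq on GRCm38.p6. Python 3.11.15, numpy 2.4.6, pandas 2.3.3 and matplotlib 3.10.9 were used. Alternatives were other fold limits, pseudocounts, FPKM minimums and scalings.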

Additional observations from a re-analysis of the deposited data

How the results depend on the processing

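Of the 10 genes, 3 were called higher and 0 lower in NCs. The higher count was 5 with a fold limit of 1.5 (Pdgfrb and Pdgfc added), 1 with a limit of 4 (Ret) and 5 with equal column totals (Pdgfrb at a log2 ratio of 1.10 and Pdgfc at 1.19), and the lower count was 1 with a limit of 1.5 (Kit). Pdgfra was within the limit with a pseudocount of 1, where 2 genes were called. The sign of Pdgfa turned with centring on the median (0.031) and with equal totals (0.28), and that of Vegfa with equal totals (0.18). Equal totals shifted all log2 ratios by 0.29 and moved the share of higher among called genes from 54.0% to 70.6%, with 2350 higher and 980 lower genes in place of 1658 and 1412. Over all genes, 2741 were higher and 2573 lower with a limit of 1.5, 679 and 488 with a limit of 4, and 3861 and 2880 with no FPKM minimum, and 1074 were higher with a pseudocount of 1. Over the pathway lists together, with the marker lists left out, 32 genes were higher and 17 lower. These became 10 and 6 with a limit of 4, and 20 were higher with a pseudocount of 1. Of 324 counts of single lists, marker lists included, under the alternatives, 274 stayed within 1.5 times the count reported and 50 did not. No paired analysis was possible because the table holds 1 value per condition and none per replicate, and for the same reason no replicate could be left out and limma was not run. The values carry no measure of the spread between cultures.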
